A study of Mus musculus with 20 samples.

Results

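Cxcl12 and Cxcr4 were the 2 genes examined here, out of 37561 genes shared by all deposited tables. They were selected by gene symbol. Both passed the filter on low levels, as did 13608 genes in total. Cxcl12 encodes stromal cell-derived factor, a secreted chemokine. Cxcr4 encodes the G protein-coupled receptor through which that chemokine steers migrating cells, and Ackr3 (older symbol Cxcr7) encodes a second, atypical receptor that binds and removes the ligand. In the developing brain the ligand is made mostly by meninges and mesenchyme, and the receptor is carried by neural progenitors, migrating interneurons and Cajal-Retzius neurons.

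RNA was sequenced from spherical neural masses derived from mouse D3 (ESD3) embryonic stem cells of strain 129s2/SvPas, which had been maintained on mouse embryo fibroblast feeders and were differentiated toward dopaminergic neurons. The 10 control libraries came from cells infected with a retrovirus carrying an shRNA against luciferase, and the 10 HPRT knockdown libraries from cells infected with a retrovirus carrying an shRNA against HPRT. Both lines gave 1 library on each day up to day 4 and on even days from 6 to 14. The study pooled RNA from replicate cultures of a time point before sequencing, so days stand in for replicates here and are successive collections of the same line. Each line was made once, so an effect of HPRT loss and any other difference between the lines cannot be told apart.

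Reads per library were recovered from the tables for 9580 genes, Cxcl12, Cxcr4, Ackr3 and Hprt among them; for the remaining genes only ratios and relative levels are given. Library size factors ran from 0.833 to 1.59, relative to a common reference of all 20 libraries. Hprt, the targeted gene (chromosome X, 50341314 to 50374836, NCBIM37), was lower in the knockdown on all 10 days, at 6.24% of the control on average over 9 days. Transcripts of neural progenitors passed the filter for 8 of 8 markers, those of neurons for 6 of 8 and those of pluripotent cells for 6 of 6. Only 7 of the 8 neuron markers were in the data, since Map2 was not listed there. Masses are mixtures of cells. In such bulk RNA, fewer cells of a type and less RNA per cell cannot be told apart.

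The start regions of both genes are shown here because transcription factors of the pair are compared further on. The 250 bases before the annotated start were taken from RefSeq (build GRCm38.p6), which held 1 window for each gene. Cxcl12 lay at chr6:117168285-117168534 on the plus strand and Cxcr4 at chr1:128592300-128592549 on the minus strand. Capitals mark matches to CCGCCC on either strand (a GC box) in the Cxcl12 window. In the Cxcr4 window they mark TGCGCA, the core of the motif of the factor Nrf1, and TATAAA on either strand, where the 2 matches overlap.
Cxcl12: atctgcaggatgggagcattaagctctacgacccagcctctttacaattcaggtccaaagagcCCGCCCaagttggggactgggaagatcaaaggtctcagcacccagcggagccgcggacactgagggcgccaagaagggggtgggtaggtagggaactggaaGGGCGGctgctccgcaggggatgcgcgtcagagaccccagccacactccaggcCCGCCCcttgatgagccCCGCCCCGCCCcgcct
Cxcr4: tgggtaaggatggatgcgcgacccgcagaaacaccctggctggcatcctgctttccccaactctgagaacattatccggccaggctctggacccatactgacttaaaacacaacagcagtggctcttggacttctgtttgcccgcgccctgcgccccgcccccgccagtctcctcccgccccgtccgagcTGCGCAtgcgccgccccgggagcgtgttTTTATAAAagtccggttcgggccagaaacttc

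The Nrf1 core stood 60 to 55 bases before the Cxcr4 start, and 6.43% of 32851 windows of this length held a match. The nearest TATAAA on the gene's own strand stood 30 to 25 bases before the start, a feature of 12.4% of all windows. Cxcl12 had neither motif and 5 matches to CCGCCC against 3 in Cxcr4, and 32.7% of windows held at least 1. The Yy1 core ATGGCG (5.73% of windows) and the hypoxia core ACGTG (16.6%) were searched on both strands and were in neither window. A match describes the letters in this window and is not evidence of binding.

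The first comparison asked how the receptor differed between the lines. Cxcr4 (Gene ID 12767, ENSMUSG00000045382 in the annotation, chromosome 1, 130484776 to 130488870, minus strand, NCBIM37, up to 2 exons in 2 transcripts, no overlapping gene) was lower in the HPRT knockdown on all 10 days. In the control line it had 529, 547, 575, 404 and 694 normalized reads on days 0 to 4, in order. Its later control levels, from day 6 to day 14, were 468, 732, 633, 435 and 413 normalized reads. In the control line the highest library was 1.81 times the lowest. In the knockdown line Cxcr4 had 399, 289, 207, 209 and 474 normalized reads on days 0 to 4. From day 6 to day 14 it stood at 458, 392, 194, 289 and 321 normalized reads. The knockdown line thus had its low points on days 2, 3 and 10, and its highest libraries (days 4 and 6) overlapped with the control range. Between consecutive collections, 6 of 9 steps exceeded 2 counting standard errors in each line. Sorted by level, all 9 neighbouring pairs of control libraries differed by less than that, and 6 of 9 in the knockdown line did.

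**Figure D1:**
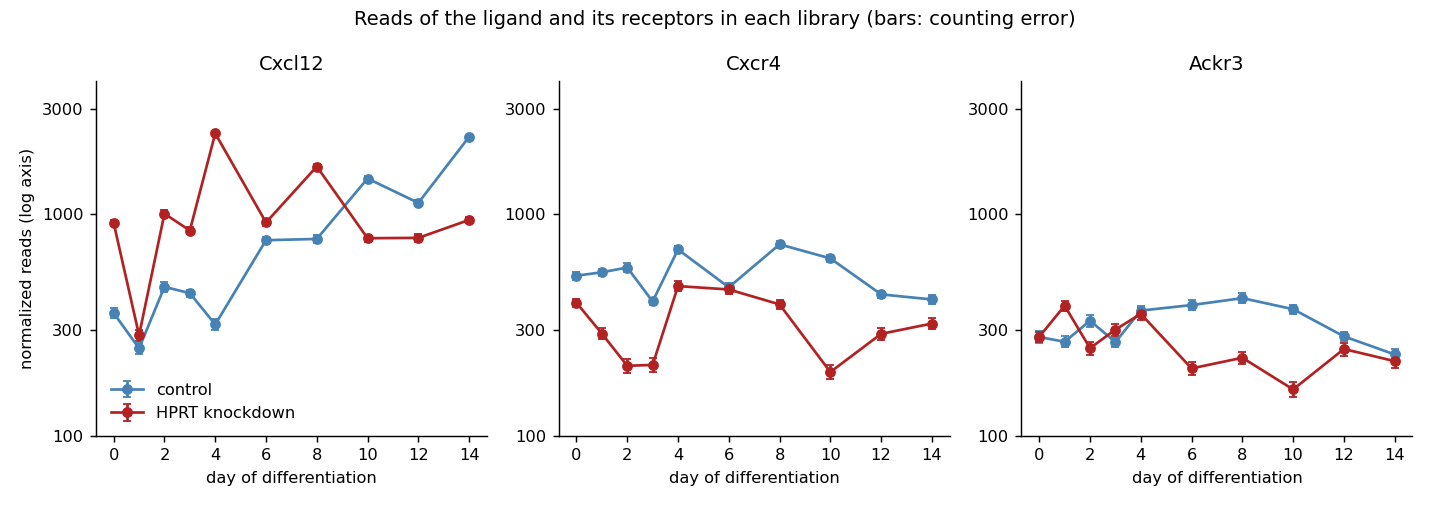
Normalized reads (log axis) of Cxcl12, Cxcr4 and Ackr3 against day of differentiation, with 1 point per library (blue, control; red, HPRT knockdown) and bars for the counting error of 1 standard error. The Cxcl12 lines cross between days 8 and 10, whereas the Cxcr4 points of the knockdown lie below those of the control on each day, by little on day 6.

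The log2 ratio of Cxcr4 within a day, knockdown over control, took the values -0.48, -0.98, -1.43, -0.90 and -0.54 through days 0 to 4. For the collections from day 6 to day 14 it was -0.061, -0.89, -1.66, -0.56 and -0.30. Counting error alone gave standard errors between 0.088 and 0.13 on this scale, so the day-6 difference was within counting error and the others were at least 2.84 times it. Counting errors cover the sampling of reads only, not the cultures.

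Over the 9 days tested (all but day 6, which the study set aside as discrepant) the mean log2 ratio of Cxcr4 was -0.86 ± 0.45 (SD, n = 9 days). Cxcr4 was thus at 55.1% of its control level. By limma with Benjamini-Hochberg adjustment over all 13608 genes, Cxcr4 was called lower (adjusted p = 0.000924), as were 26.3% of all genes tested. A ratio below 0 on all 9 days was found for 2064 genes, or 15.2%. Counted from the lowest ratio, Cxcr4 stood at percentile 7.92 of all genes tested. The exact sign-flip permutation test over days, two-sided, gave 0.00390625, the smallest p that 9 days allow. The study had singled out this ligand and receptor on these same libraries, so these p-values are not independent evidence of direction.

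The ligand took a different course. Cxcl12 (Gene ID 20315, ENSMUSG00000061353, chromosome 6, 117118553 to 117131385, plus strand, NCBIM37, up to 4 exons in 4 transcripts, no overlapping gene) exceeded its control level in 7 of 10 knockdown libraries, those up to day 8, and was lower in the 3 from day 10 on. In the control line it had 358, 248, 471, 440.5 and 318 normalized reads on days 0 to 4. From day 6 to day 14 it stood at 764, 774, 1452, 1126 and 2240.5 normalized reads. The 5 control libraries up to day 4 all lay below the 5 later ones, and the highest was 9.02 times the lowest.

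In the knockdown line Cxcl12 had 914, 285, 1007, 845 and 2320.1 normalized reads on days 0 to 4. Later libraries of that line, from day 6 to day 14, had 919, 1645, 780.3, 783 and 944 normalized reads. The knockdown line reached its highest level on day 4, a level that the control neared on day 14. Its steps were abrupt: Cxcl12 fell to 0.312 times its level from day 0 to day 1, rose 3.54-fold to day 2 and 2.74-fold from day 3 to day 4, and fell to 0.396 times from day 4 to day 6. From day 10 to day 12 it changed 1.00-fold. In order of level, 6 of the 9 neighbouring pairs of knockdown libraries differed by less than 2 counting standard errors, against 3 of 9 in the control line.

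The log2 ratios of Cxcl12 for days 0 to 4 were 1.28, 0.14, 1.14, 0.99 and 2.88, the last a 7.36-fold difference. They were 0.24 and 1.10 on days 6 and 8, and then turned to -0.85, -0.49 and -1.18 for days 10, 12 and 14. On day 1 the ratio was 1.15 times its counting standard error. Every other day exceeded 2 of them, day 6 included, at 3.38.

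**Figure D2:**
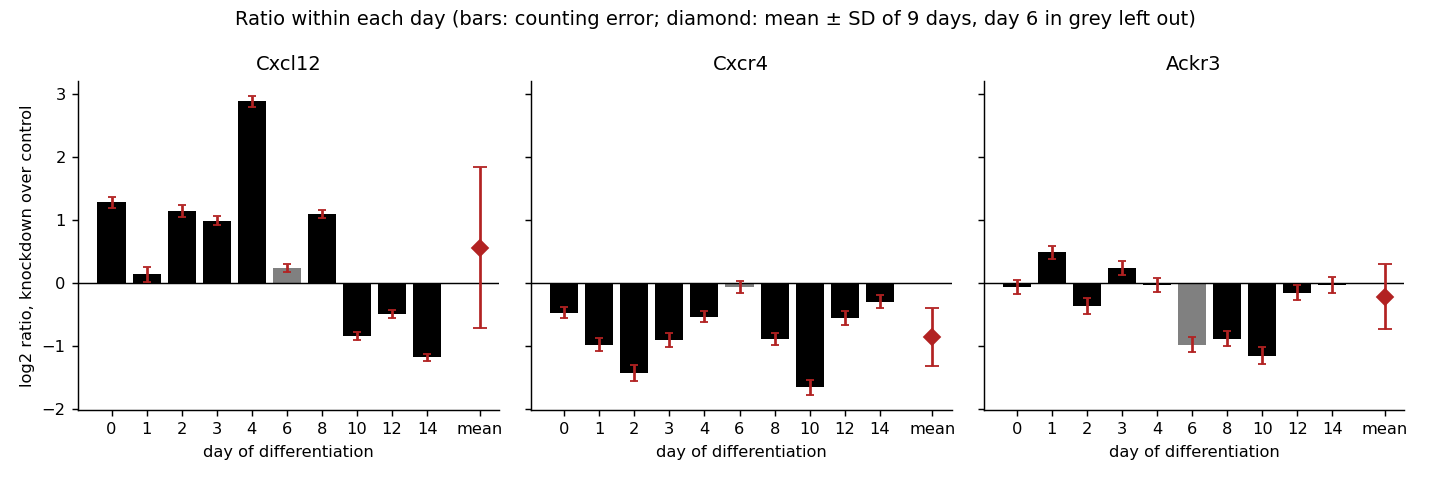
Log2 ratio of the HPRT knockdown over the control within each day for Cxcl12, Cxcr4 and Ackr3; error bars on the columns are counting standard errors, the diamond is the mean with its SD over 9 days, and day 6 (grey) was left out of the mean. Cxcl12 columns stand above 0 up to day 8 and below it from day 10, Cxcr4 columns are below 0 on 10 of 10 days and Ackr3 columns on 8 of 10.

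Averaged over the course, the difference in Cxcl12 did not pass the test. The mean log2 ratio was 0.56 ± 1.27 (SD, n = 9 days), with 6 of 9 days higher and a limma adjusted p of 0.245, where 26.2% of all genes tested were called higher. By exact sign-flip permutation p was 0.238. Leaving out single days put the mean between 0.27 and 0.77, and the lowest was without day 4.

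Courses over time were compared next, as slopes on day. In the control line Cxcl12 rose by 0.20 log2 units per day (SE 0.025, limma adjusted p = 0.000848), equal to 6.93-fold over 14 days, and 21.8% of genes tested rose in that line. In the knockdown line its slope was 0.025 (SE 0.054) and did not pass the test (limma adjusted p = 0.772), where 13.7% of genes were called in either direction. The test of the difference between the lines, a slope of the ratio of -0.17 per day (SE 0.062), had an unadjusted p of 0.0237 in limma and an adjusted p of 0.098. The difference in course therefore did not pass the threshold, which 14.0% of genes tested passed in either direction. Cxcr4 had slopes of -0.014 in the control line and -0.0053 in the knockdown line, neither of which passed (limma adjusted p = 0.621 and 0.924). The slope of the Cxcr4 ratio was 0.015 (limma adjusted p = 0.767), so a drift of the receptor difference with time was not detectable.

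Ackr3 (Gene ID 12778, listed as Cxcr7, chromosome 1, 92100555 to 92113326, plus strand, NCBIM37) was the third member of the axis with measurable reads. In the control line it lay between 233 and 418 normalized reads with a median of 306, and in the knockdown line between 162 and 387 with a median of 248. The lines overlapped over most of this range. Its log2 ratios for days 0 to 4 were -0.068, 0.48, -0.37, 0.23 and -0.037. Those from day 6 to day 14 were -0.98, -0.88, -1.16, -0.16 and -0.034. The low values thus fell on 3 consecutive collections, days 6, 8 and 10. The mean of -0.22 ± 0.52 (SD, n = 9 days) did not pass the test (limma adjusted p = 0.272). It was -0.10 without day 10, -0.14 without day 8 and -0.31 without day 1, and passed in none of these.

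Per kilobase of annotated exon (8176 bases for Cxcl12, 1808 for Cxcr4 and 3348 for Ackr3), Cxcr4 was the more abundant receptor in each library. Its level was 2.23 to 3.81 times that of Ackr3 in the control line and 1.28 to 4.21 times in the knockdown line. The Cxcl12 level per kilobase was 0.10 to 1.20 times that of Cxcr4 in the control line, with a median of 0.238, and 0.218 to 1.08 times in the knockdown line, with a median of 0.769. Exon lengths count every annotated exon, and Cxcl12 has alternative 3′ exons, so its level per kilobase would be higher if one short transcript were used.

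Other proteins that bind the pair were considered as partners. Of 6 listed genes 5 passed the filter; 1 was higher, 2 were lower and 2, Ackr3 and Hmgb1, did not pass the test, where 26.2% of all genes tested were higher and 26.3% lower. Cd164, a sialomucin that associates with the receptor, was higher on 9 of 9 days (mean log2 ratio 0.27 ± 0.17, SD, n = 9 days). Dpp4, the peptidase that inactivates the ligand, was lower on 8 of 9 days (-1.96 ± 1.97). Mif, a cytokine that also binds the receptor, was lower on 7 of 9 days (-0.44 ± 0.53), with a limma adjusted p of 0.0437 that rose as far as 0.0993 under other settings and passed the threshold in 5 of 16. The median over the list was -0.22, against 0.0056 over all genes tested. Cd74, the receptor of Mif, had at most 14 reads in a library.

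Signaling downstream of the receptor runs through inhibitory G proteins and PI3K. Among 21 listed genes past the filter 10 were higher in the knockdown, 1 was lower and 10 did not pass, with a median log2 ratio of 0.26. Plcb1, a phospholipase C, led at 1.19 ± 0.49 (SD, n = 9 days), followed by Pik3r1, the regulatory subunit of PI3K, at 1.10 ± 0.53 and the transcription factor Stat3 at 0.98 ± 0.15. Each was higher on 9 of 9 days. Map2k2, a MAP kinase kinase, was the 1 lower gene at -0.16 ± 0.11, and its call was lost in 7 of 17 alternatives. Of all genes tested 26.2% were called higher and 26.3% lower.

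Of 14 effectors of cell migration 6 were higher, 3 were lower and 5 did not pass, beside 26.2% higher and 26.3% lower over all genes. Ptk2b, the focal adhesion kinase relative Pyk2, was at 0.88 ± 0.37 (SD, n = 9 days), and the small GTPases Rac1 and Rhoa were at 0.41 ± 0.30 and 0.32 ± 0.31. Pak1, a kinase activated by Rac, was lower at -0.61 ± 0.54, as were the focal adhesion kinase Ptk2 at -0.42 ± 0.40 and the exchange factor Vav2 at -0.23 ± 0.25. The calls of Rhoa and Vav2 were lost in 4 of 17 and 11 of 16 alternatives. The list median was 0.065.

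Genes that shut the receptor down or sort it for degradation included 6 higher and 2 lower of 12, and 4 that did not pass, with a median of 0.10. The shares over all genes were 26.2% higher and 26.3% lower. Rgs4 and Rgs16, which quench G protein signals, were higher at 0.89 ± 0.65 and 0.73 ± 0.86 (SD, n = 9 days), and the receptor kinase Adrbk2 at 0.83 ± 0.85. The call of Rgs16 was lost in 9 of 17 alternatives. The receptor kinases Grk6 and Adrbk1 were lower at -0.48 ± 0.30 and -0.23 ± 0.17.

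**Figure D3:**
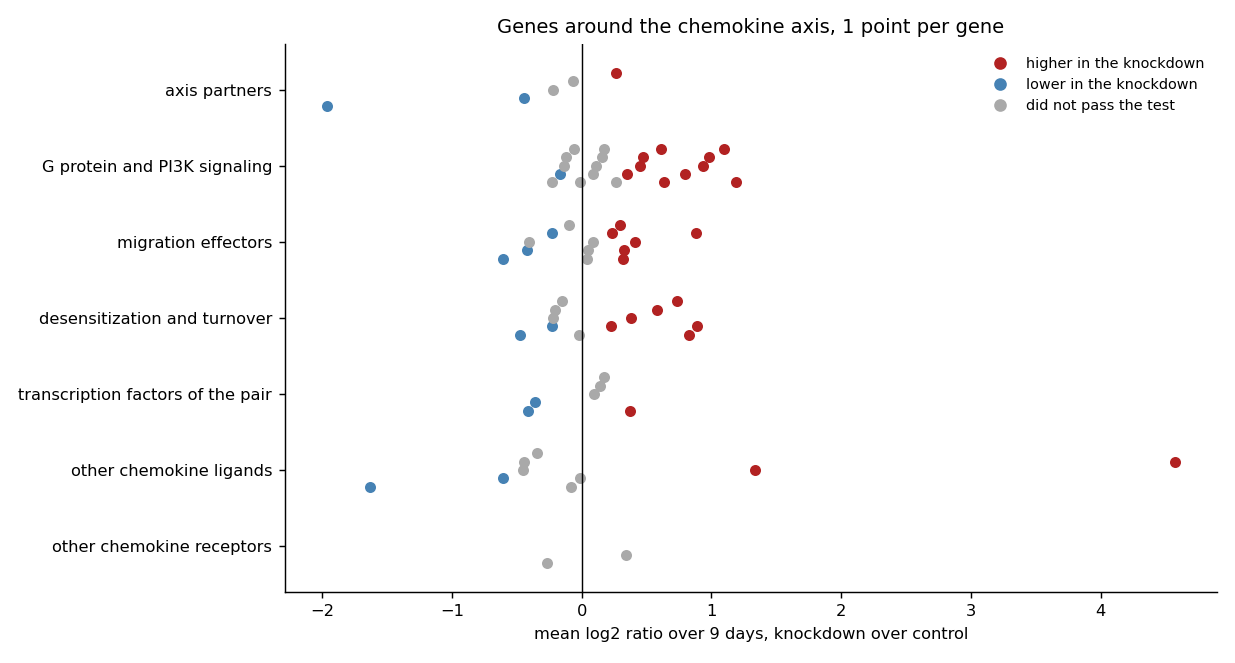
Mean log2 ratio over 9 days, knockdown over control, of each gene past the filter in 7 lists around the chemokine axis, with 1 point per gene coloured by its limma call. Red points outnumber blue ones for signaling genes (10 against 1), and Cxcl15 is the far point at 4.57 among other chemokine ligands.

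Transcription factors known to act on either gene gave 1 higher, 2 lower and 3 that did not pass of 6, beside 26.2% higher and 26.3% lower of all genes. Nrf1, whose core motif stands in the Cxcr4 window printed above, was lower on 9 of 9 days at -0.41 ± 0.17 (SD, n = 9 days, limma adjusted p = 0.000928). Yy1, a repressor of Cxcr4, was also lower on 9 of 9 days at -0.36 ± 0.20. Rela, a subunit of NF-kappa-B, was higher on 9 of 9 days at 0.37 ± 0.23. Hif1a and Epas1, the hypoxia factors, and Foxc1, a mesenchymal forkhead factor, did not pass the test. The list median was 0.12.

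Other chemokines were compared in the same way. Of 24 listed other ligands, 23 of them in the data, 9 passed the filter, 2 were higher, 2 lower and 5 did not pass, with a median of -0.35. Over all genes 26.2% were higher and 26.3% lower. Cxcl15, a ligand best known from lung, was at 4.57 ± 1.67 (SD, n = 9 days), though its value in a library differed between tables. Cx3cl1, the membrane-bound fractalkine, was higher at 1.33 ± 0.67. Cxcl5 and Ccl2, which attract neutrophils and monocytes, were lower at -1.63 ± 1.71 and -0.61 ± 0.61, calls lost in 3 of 16 and 2 of 16 alternatives. Of 20 other receptors 2 passed the filter and neither passed the test. Under 10 reads were found in every library for 16 of the 20.

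Level patterns over the 18 libraries without day 6 gave the genes most like each member. For Cxcl12 these were Epb4.1l3 (Pearson r = 0.912), Foxd1 (0.911), Foxf2 (0.898), Eda (0.896) and Reck (0.895). For Cxcr4 they were Gna15 (0.878), Klhl35 (0.867), Robo3 (0.863), Frat2 (0.862) and Cblb (0.862). All 5 neighbours of Cxcr4 were lower in the knockdown, beside 26.3% of all genes tested. Their mean log2 ratios ran from -0.62 for Frat2 to -4.23 for Robo3, an axon guidance receptor. They were picked for matching Cxcr4 over libraries of both lines, so their shared direction is no separate result. Cxcl12 and Cxcr4 themselves had r = -0.14, and Cxcr4 and Ackr3 0.61. These correlations describe the libraries, which share line, day and depth, and carry no test.

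Markers of cells that make the ligand or carry the receptor were set beside the pair. Fibroblast and mesenchyme markers included 5 of 10 that rose with time in the control line, where 21.8% of genes tested rose. These were the collagens Col1a2 and Col3a1, the matrix proteins Dcn and Postn and the surface protein Thy1. In the knockdown line 1 of the 10, Dcn, rose and 1, Prrx1, fell, where 8.11% and 5.60% of genes tested did. Their mean log2 ratios for days 0 to 4 were 0.32, -0.11, -0.14, 0.10 and 0.85. Those for the collections from day 6 to day 14 were -0.74, 0.39, -1.05, -1.19 and -1.02. The days on which the Cxcl12 ratio was below 0 were thus days with a fibroblast mean ratio below -1. On those days the mean ratios of endothelial, neuron, pluripotent cell and Cajal-Retzius markers were below -1 as well. Over the 18 libraries Cxcl12 had r = 0.52 with the fibroblast mean level and 0.54 with the endothelial one. With the neuron, pluripotent cell and Cajal-Retzius means r was 0.16, 0.14 and 0.084. Interneuron and endoderm means had 0.34 and 0.26, and the neural crest mean -0.45. Values of this size were not limited to cell type lists, as the transcription factors of the pair had 0.62 and other chemokine receptors 0.57. Summed normalized reads of the 6 fibroblast markers with recovered reads ran from 1727 to 12579 in the control line and from 2656 to 5801 in the knockdown line. Over the course 2 of the 10 markers, Lum and Postn, both matrix proteins, were lower and 8 did not pass, against 26.3% of all genes called lower. Lum was at -1.07 ± 1.15 (SD, n = 9 days) and Postn at -0.70 ± 0.68, with calls lost in 3 of 17 and 1 of 16 alternatives. Feeder cells are fibroblasts, and the part of feeders or of mesenchyme in the Cxcl12 values was not tested.

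Endothelial markers, of cells that also respond to the ligand, had 3 of 6 lower and none higher, beside 26.3% and 26.2% of all genes. Pecam1 was at -1.70 ± 1.92 (SD, n = 9 days), Cldn5 at -1.41 ± 1.61 and Emcn at -1.15 ± 1.33, and each of these calls was lost in 5 or more alternatives. Summed reads of the 8 markers with recovered reads ran from 442 to 2553 in the control line and from 455 to 1802 in the knockdown line. Blood and microglia, the other main carriers of Cxcr4 in tissue, gave few reads. Cd68, their 1 marker past the filter, had up to 60.2 reads in a library and was not called. Of their 6 markers 4, Ptprc, Csf1r, Aif1 and Sfpi1, had under 10 reads in every library, and the 6 sums ran from 18.7 to 43.3 and from 10.0 to 44.6.

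Neurons and Cajal-Retzius cells carry the receptor in the embryo. Of 6 neuron markers past the filter 4 were lower and 2 did not pass, where 26.3% of all genes were lower. They were led by Stmn2 at -2.01 ± 1.00 (SD, n = 9 days), Dcx at -1.99 ± 1.24 and Tubb3 at -1.88 ± 0.98, genes of the neuronal cytoskeleton. Of 5 Cajal-Retzius markers Calb2 (-4.45 ± 1.26), Lhx1 (-3.33 ± 1.36) and Lhx5 (-2.66 ± 2.56) were lower, while Reln was higher at 0.80 ± 0.75, beside the same 26.3% lower and 26.2% higher over all genes. Over the 18 libraries the Cxcr4 level had r = 0.74 with the mean of the neuron markers and r = 0.79 with that of the Cajal-Retzius markers. With the means of neural progenitor and interneuron markers, of other carriers, r was 0.31 and -0.054. It was 0.54 for endothelial, 0.25 for endoderm and 0.44 for neural crest markers, 0.47 for Cd68 of the blood and microglia list, and 0.71 for Hprt itself. These correlations take both lines together, so a difference between the lines enters them. Only Snap25 and Elavl3, the 2 neuron markers not called, had recovered reads. Their sums ran from 801 to 3394 in the control line and from 676 to 2132 in the knockdown line, and leave out the markers called lower. For Cajal-Retzius cells (4 markers, without Lhx1) sums ran from 1737 to 4187 and from 1803 to 7557. Reln, the higher gene, had up to 7605 reads in a library, against 1005 for Calb2 and 872 for Lhx5. Trp73 had at most 1.90 recovered reads although it passed the filter, so its scale in the sum is uncertain. The part of neurons and Cajal-Retzius cells in the Cxcr4 difference was not tested.

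**Figure D4:**
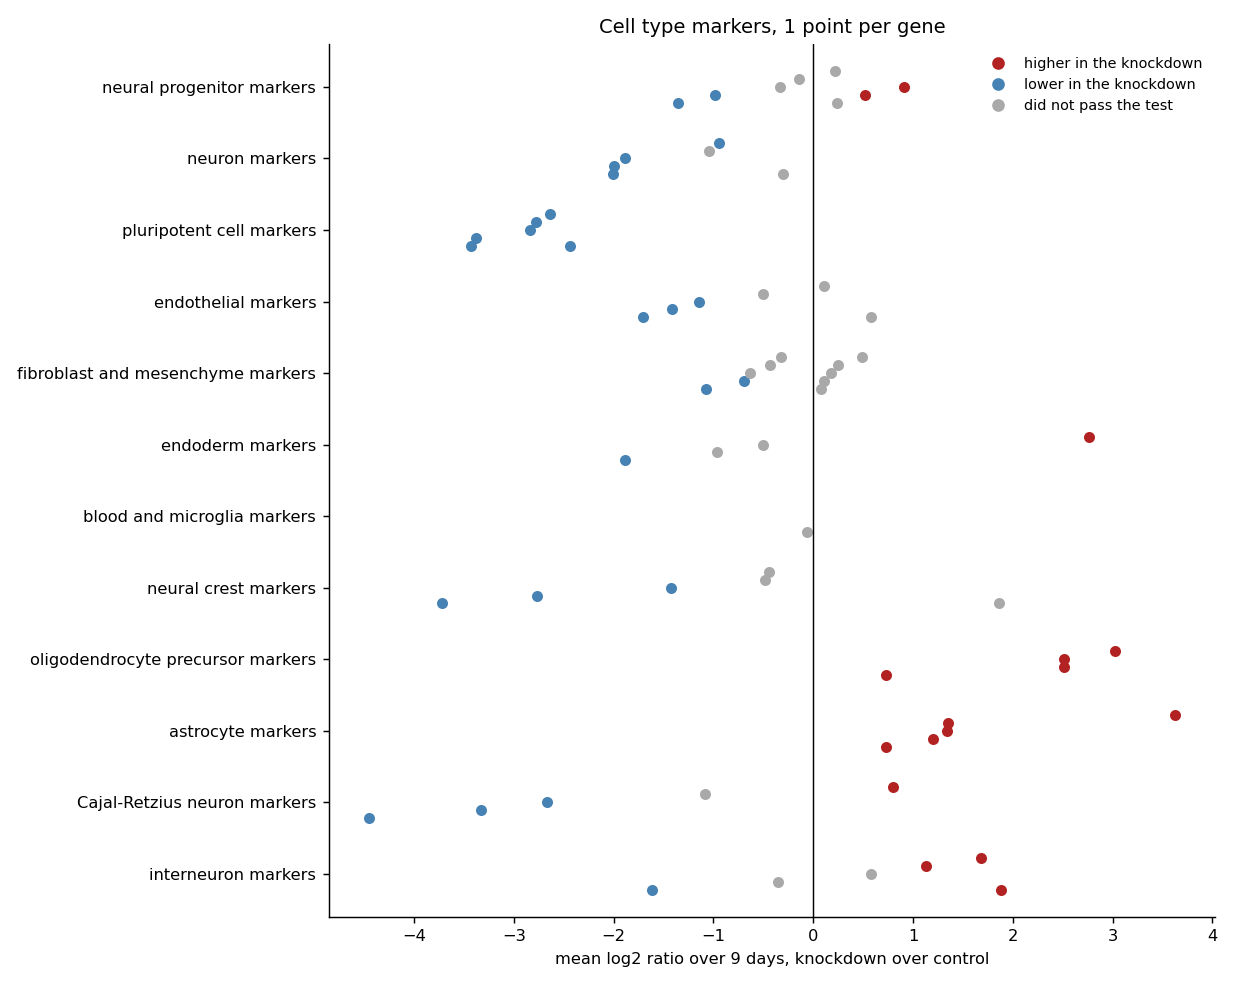
Mean log2 ratio over 9 days, knockdown over control, of each marker gene past the filter in 12 cell type lists, with 1 point per gene coloured by its limma call. Pluripotent cell markers are all on the left (6 of 6 lower), and oligodendrocyte precursor and astrocyte markers all on the right (4 of 4 and 5 of 5 higher).

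Pluripotent cells also express Cxcr4, and 6 of 6 of their markers were lower, where 26.3% of all genes were, with Zfp42 at -3.43 ± 2.67 (SD, n = 9 days), Tdgf1 at -3.38 ± 2.40 and Nanog at -2.84 ± 1.79. The Cxcr4 level had r = 0.72 with their mean. Their summed reads (3 markers) ran from 1150.3 to 5192 in the control line and from 42.6 to 2083 in the knockdown line. Endoderm, another embryonic tissue that carries the receptor, had 1 of 4 markers higher and 1 lower, beside 26.2% higher and 26.3% lower over all genes. Foxa1 was higher at 2.77 ± 0.75. Sox17 was lower at -1.89 ± 2.40, a call lost in 9 of 15 alternatives, and the list median was -0.73. Sums of 7 endoderm markers ran from 161 to 365 and from 331 to 1695. Foxa1 had up to 1714 reads in a library, against 289 for Gata4, so the sums largely follow Foxa1. Gata6 had at most 5.10 recovered reads although it passed the filter, so its scale in the sums is uncertain. Of 6 neural crest markers Tcfap2b (-3.72 ± 2.02), Pax3 (-2.77 ± 1.19) and Tcfap2a (-1.42 ± 1.26) were lower, beside 26.3% of all genes, and sums of 3 ran from 632 to 1436 and from 79.5 to 553.

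Markers of glia and their precursors were higher. All 4 oligodendrocyte precursor markers were higher, where 26.2% of all genes were, with Olig2 at 3.02 ± 1.44 (SD, n = 9 days), Olig1 at 2.51 ± 1.01 and Cspg4 at 2.51 ± 1.52. All 5 astrocyte markers were higher, led by S100b at 3.63 ± 3.22, Aqp4 at 1.35 ± 0.95 and Gfap at 1.34 ± 1.01. The Cxcr4 level had r = -0.83 with the oligodendrocyte precursor mean and r = -0.80 with the astrocyte mean. Sums of the 2 recovered markers ran from 495 to 4120 in the control line and from 1155 to 5749 in the knockdown line for precursors, and from 310 to 2661 and from 911 to 5790 for astrocytes.

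Neural progenitor markers were mixed, with Vim at 0.91 ± 0.29 (SD, n = 9 days) and Sox2 at 0.52 ± 0.57 higher, Pax6 at -1.36 ± 0.74 and Hes5 at -0.99 ± 1.02 lower, and 4 of 8 not called, beside 26.2% higher and 26.3% lower over all genes. Interneurons are cells that the ligand guides in the embryonic cortex. Of their 6 markers Dlx1 (1.88 ± 1.19), Dlx2 (1.68 ± 1.14) and Dlx5 (1.13 ± 1.17) were higher and Gad2 (-1.62 ± 1.52) was lower. The calls of Sox2 and Dlx5 were lost in 3 of 16 and 1 of 16 alternatives. Interneuron sums (5 markers) ran from 233 to 1284 and from 134 to 1114, and those of progenitors (3 markers) from 860.05 to 3904 and from 579 to 1839. Dlx2 had at most 10.7 recovered reads although it passed the filter, so its scale in the interneuron sums is uncertain.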

How the data were processed

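The authors deposited 28 tables of log2 values, each for 2 libraries (10 same-day pairs, 9 consecutive-day pairs per line), centred on the mean of the pair, so a table gives a ratio and no level. Per the study, 50-cycle reads were aligned to NCBI37/mm9 with ELAND in CASAVA (1.8.2 per the labels) and normalized within each table by DESeq. Counts at or below 1 entered as 0, and strand was not used. Columns of the authors' own comparisons were not used. Library totals and sequencing lanes were not used here.

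Levels came from least squares over 27 tables. Values around the loop of tables for days 3 and 4 did not add up to 0. That loop holds a control and a knockdown table of these days, and the control one was left out. Without it 262 of 300 genes tried gave whole counts, against 16 of 300 without the knockdown one. Reads were recovered as whole multiples of 1/49 read (tolerance 0.04 of a multiple plus 2e-07 per multiple, 2 libraries exempt), and scaled by median-of-ratios size factors. The filter kept genes whose rounding step gave a typical log2 count of at least 4. Recovered reads gave the same level class as the rounding step for 93.9% of 3340 genes checked, but a lower one for Dlx2, Gata6 and Trp73. Ratios were taken from same-day tables and tested with limma 3.58.1 (R 4.3.3), Benjamini-Hochberg threshold 0.05, and by exact sign flips (Python 3.11.15). Scripts were tested on simulated data. The labels give both lines the same days, which pair the libraries. Deviations from the line means correlated above 0.1 on 8 of 9 days (range -0.011 to 0.416), although on 5 of 9 days the best match in the other line was from another day. Up to 3 called genes per list and direction were named. The members and lists were chosen with earlier results of these data known. Alternatives covered filters, scaling, day 6, pairing, recovered reads and each day left out.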

Additional observations from a re-analysis of the deposited data

Results flagged for a closer look

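Of 29 sets of 10 daily values examined for a day far from the others, 1 was singled out, where chance flags about 1 in 20. Cxcl12 in the HPRT knockdown library of day 1 stood at 8.15 on the log2 scale of normalized reads, below every other library of that line. The control library of the same day was also the lowest of its line.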

How the results depend on the processing

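The lower Cxcr4 level kept its direction and its call in all 17 alternatives (limma adjusted p or adjusted exact sign-flip p between 0.000451 and 0.0134), and Cxcl12 kept its direction without passing (0.109 to 0.51). Without the replicate block that pairs libraries by day, Cxcr4 was at -0.87 (limma adjusted p = 0.00137), Cxcl12 at 0.54 (0.321), and 5827 genes were called, so the block decided no call of the pair. The rise of Cxcl12 in the control line held in every alternative, with slopes of 0.18 to 0.21 with single days left out. Day 6 is the mean of the other days, so keeping it could not move a slope on day, only its error. Counts of called genes moved more: on recovered reads 4606 of 8981 genes differed between the lines, since fewer genes could be tested. With slopes on log2(day + 1), 3248 control-line genes and 125 knockdown-line genes changed with time, against 5645 and 1865, and the cause was not tested. With day 6 kept, which altered only the errors of slopes on day, the courses differed for 1066 genes against 1911. With single days left out, genes called ranged from 6254 to 7265 between the lines, 4263 to 5980 over time in the control line, 250 to 2910 in the knockdown line and 605 to 1657 for the difference in course; the lowest counts of the last 2 were without day 14 and without day 12.

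Some slopes that missed the test changed sign with single days left out, though that of the Cxcl12 ratio did not (-0.21 to -0.14). Cxcr4 ranged from -0.022 to 0.0040 in the control line, from -0.018 to 0.011 in the knockdown line and from -0.014 to 0.035 for the difference, and Cxcl12 in the knockdown line from -0.023 to 0.041. Ackr3 in the control line turned to 0.033 on log2(day + 1), and ranged from -0.0086 to 0.023 with single days left out. Of 60 other genes tested between the lines and named here, 45 kept the call in every alternative.

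With 1 library per line and day and 1 line of each kind, p-values measure spread over days only. Normalized counts at or below 1 entered as 0, which understates ratios of low genes such as Cxcl15. Values in a library also differed between tables for other named genes. These were Nanog, Zfp42, Cldn5, Sox17, Lhx1, Vav2, Dpp4, Tdgf1, Nrf1, Gna15, Klhl35 and Robo3. Their fitted levels missed a table by at most 0.075 log2 units (Nanog), against 0.14 for Cxcl15.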
